A study of Mus musculus with 9 samples.

Results

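The cytosolic ribosomal protein genes are described here in endothelial cells sorted from mouse brain. The genes were taken from the deposited matrix by symbol: Rpl or Rps followed by a number and at most 1 further letter, together with Rplp0, Rplp1, Rplp2 and Rpsa, without the Rps6k kinases and without symbols that carry -ps. The rule found 80 of the 23420 rows of the matrix, and 78 of them passed the filter on low counts that left 13317 rows for testing. Of the 80, 46 encode proteins of the large subunit outside its stalk, 3 the stalk (Rplp0, Rplp1 and Rplp2) and 31 the small subunit. The 2 that did not pass the filter were Rpl3l and Rpl10l.

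Each of the 3 genotypes had 3 libraries, and each library was made from 20000 CD31+CD45- cells of the brain of 1 C57BL/6 mouse aged 6 months and labelled male. WT mice carried neither alteration. APP/PS1 mice carry mutant transgenes of the amyloid precursor protein and presenilin and form amyloid plaques. APP/PS1xRIPK1KD mice, called the compound genotype below, carry in addition an altered Ripk1, a kinase of cell death and inflammatory signalling. The meaning of KD, the promoters of the transgenes and the cells in which Ripk1 is altered are not given in the sources used here. No library carries the Ripk1 alteration without APP/PS1, so its effect on a WT background was not measured.

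The cytosolic ribosome consists of a large and a small subunit, each built from ribosomal RNA and a fixed set of proteins that are needed in nearly equal numbers. Mammalian ribosomal protein mRNAs are among the most abundant of a cell and begin with a stretch of pyrimidines, the 5′ terminal oligopyrimidine (TOP) motif, through which mTOR signalling and the RNA-binding protein Larp1 control their translation and stability. Genes of these proteins are spread over the genome, and many of them have left processed pseudogenes, which complicates the counting of reads. They are expressed in all cells, brain endothelium included.

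Before the values, a few start sites show the pyrimidine run near the start that many, though not most, of these genes held in the windows searched. RefSeq start regions (GRCm38.p6) were matched by symbol for 60 of the 80 genes and each covers 300 bases, 250 before the annotated start and 50 from it. The windows below run 5′ to 3′ along the gene strand over 50 bases, the last 10 of which are transcribed by the annotation. Capitals mark unbroken runs of at least 8 C or T and the letters CGGAAG or CTTCCG, the core that ETS factors such as GABP bind. Rpl27, Rpl27a, Rps15a, Rps24 and Rps25 are shown because their libraries lay lower without overlap in both comparisons with WT, Rps27l because it did not share that direction, Rps27 because it is the closest relative of Rps27l, and Rps6 because it stood at nearly the same level in WT and APP/PS1.
Rpl27 (chr11:101442205-101442254, plus strand): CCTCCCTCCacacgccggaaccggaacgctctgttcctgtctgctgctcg
Rpl27a (chr7:109519155-109519204, plus strand): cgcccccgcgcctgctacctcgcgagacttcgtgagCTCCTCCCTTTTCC
Rps15a (chr7:118116138-118116187, minus strand): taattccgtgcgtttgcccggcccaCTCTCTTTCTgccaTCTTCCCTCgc
Rps24 (chr14:24490638-24490687, plus strand): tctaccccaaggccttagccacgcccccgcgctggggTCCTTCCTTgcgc
Rps25 (chr9:44407674-44407723, plus strand): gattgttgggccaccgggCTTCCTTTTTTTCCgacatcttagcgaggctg
Rps27 (chr3:90213639-90213688, minus strand): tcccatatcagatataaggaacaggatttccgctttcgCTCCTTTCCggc
Rps27l (chr9:66946046-66946095, plus strand): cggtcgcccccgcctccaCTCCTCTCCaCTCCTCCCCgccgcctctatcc
Rps6 (chr4:86857358-86857407, minus strand): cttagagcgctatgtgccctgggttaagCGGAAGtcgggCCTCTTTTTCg

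A pyrimidine run crosses the annotated start in Rpl27a, Rps15a, Rps24, Rps27 and Rps6 and lies upstream of it in Rps25 and Rps27l, while in Rpl27 it lies at the far upstream end of the window. The longest runs, of 14 bases, were those of Rpl27a and Rps25. Within 20 bases either side of the start, 45% of the 60 genes held a run of at least 8 C or T, against 15.9% of the 27025 RefSeq start regions of the same length. CGGAAG or its complement CTTCCG occurred anywhere in the 300 bases of 68.3% of the genes and of 17.2% of all start regions. GCCATNTT or AANATGGC, the core bound by Yy1, occurred in 16.7% against 6.23%, and TCTCGCGA or TCGCGAGA in 15% against 1.08%. TATAAA between 45 and 15 bases before the start on the gene strand occurred in 0 of the 60 genes and in 2.36% of all start regions. These letters were read on the stated strands only as text. Among the 25 matched genes whose libraries lay lower without overlap in the compound genotype than in WT, 10 held the pyrimidine run and 16 the ETS core, against 17 and 25 of the 35 others, so neither was more frequent among them. The Yy1 core was in 6 against 4 and TCTCGCGA or its complement in 3 against 6.

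Total expected counts ranged from 16263792 (APP/PS1 replicate 1) to 52413200 (APP/PS1 replicate 3). The ribosomal RNA precursor Rn45s took 15.8% to 33.8% of a library. Endothelial identity was checked by 10 markers, whose summed level lay between 20708 and 24349 CPM (counts scaled to a common library size, here after TMM, which sets the sizes so that most genes do not differ) in all 9 libraries, with Cldn5, the main claudin of the barrier, at 5595 CPM or more. All 9 mice were labelled male, yet 6 libraries, replicates 1 and 2 of each genotype, held Xist at 264 to 533 CPM and 4 Y-linked transcripts summing to at most 0.433 CPM. The replicate 3 libraries held those Y-linked transcripts at 150 to 185 CPM and Xist at no more than 4.77 CPM. The median and the number of genes below 0 in each comparison are therefore also given for replicate 3 and for replicates 1 and 2 apart. Nothing in the labels says that same-numbered libraries share a litter or a day, and p-values measure the spread between these libraries only.

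Ribosomal protein transcripts took about the same share of all counts in the 3 genotypes. The share was 1.44%, 1.32% and 1.44% in the WT libraries, 1.31%, 1.53% and 1.50% in APP/PS1 and 1.31%, 1.48% and 1.49% in the compound genotype, which gives means of 1.40% ± 0.0674, 1.45% ± 0.122 and 1.43% ± 0.102 (SD, n = 3 each). The ranges overlapped. With Rn45s left out of the denominator the shares were 2.17%, 1.99% and 2.05% in WT, 1.83%, 1.82% and 2.09% in APP/PS1 and 1.78%, 1.91% and 1.87% in the compound genotype. On that denominator every library of the compound genotype lay below every WT library, and APP/PS1 replicate 3 lay inside the WT range. The summed level was 15330 ± 778 CPM in WT, 14088 ± 1328 in APP/PS1 and 13390 ± 445 in the compound genotype. In bulk libraries, less RNA of these genes per cell and fewer cells that are rich in it cannot be told apart.

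Levels per length spanned a wide range although the ribosome uses nearly all of these proteins once. On the scale of CPM per kb of the shortest principal transcript in GENCODE M21 (means over 9 libraries), the highest gene was Rps27, a small-subunit zinc-finger protein, at 740, with libraries from 591 to 958. Rpl13 at 718, Rps14 at 610, Rpl41 at 539 and Rpl9 at 469 followed. Rps14 belongs to the small subunit and the others to the large one, of which Rpl41 is the smallest protein. The library ranges of neighbours in this order overlapped (624 to 814 for Rpl13, 544 to 689 for Rps14, 361 to 615 for Rpl41 and 425 to 521 for Rpl9). At the other end stood Rpl30 at 24.2, Rpl34 at 24.7, Rpl12, a protein of the stalk base, at 33.5 and Rps20 at 41.0, above the near-silent Rpl39l at 1.34. The annotated Rps20 transcript used here has 3706 bases, the longest of the set against a median of 680.5, and its low value per kb rests on that length, since its unscaled level was 172 ± 14.6 CPM in WT. The order as a whole is shown by the plot of level per length.

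**Figure D1:**
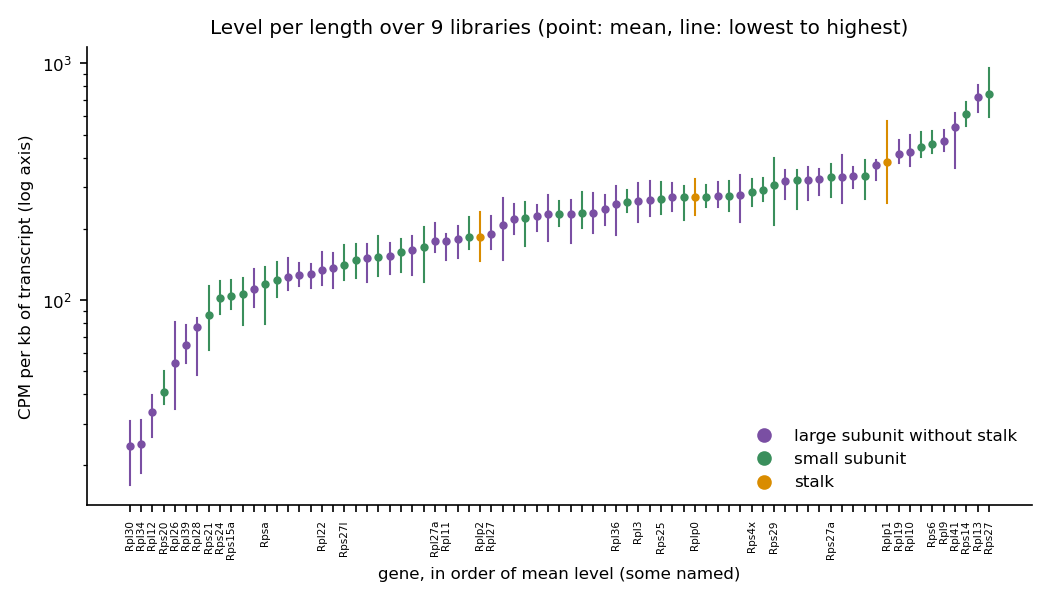
Mean CPM per kb of transcript (points) and the lowest to highest of the 9 libraries (lines) on a log axis for 77 tested ribosomal protein genes in order of level; Rpl39l, with a library at 0, is left out. Rpl30 and Rpl34 stand lowest at 24.2 and 24.7, and Rps27 highest at 740.

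Rpl34 and Rpl26 were low partly in name only, because rows of near-identical copies held most of the joint counts. Rpl34-ps1, a processed pseudogene on chromosome 6, held 90.3% of the counts of the pair with Rpl34, and its counts were 7.32 to 11.7 times those of Rpl34 in a library. Gm15772, a processed pseudogene on chromosome 5 that RefSeq lists with Rpl26 as a synonym, held 81.9% of the pair with Rpl26. Rps15a-ps6 held 20.9% of its pair with Rps15a. The sum of Rpl34 and its copy was 143, 131 and 132 CPM in WT, 124, 115 and 128 in APP/PS1 and 109, 122 and 110 in the compound genotype, and both APP/PS1-bearing genotypes lay below WT without overlap. RSEM divides reads that fit several genes, and 76.9% of the values of the 80 genes were not whole (by more than 0.005) against 28.3% of the whole matrix; 77 of the 80 had such a value in at least 1 library. The split between a gene and its copies is therefore uncertain. That holds for Rpl30 too, whose values were not whole in 100% of the libraries. Whether its low level rests on the division of reads was not tested. An alternative chosen after seeing the data added the counts of 7 near copies to their parents. In it, 70, 60 and 76 of the 78 genes had a fold change below 0 in the 3 comparisons described next.

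Tissue-restricted paralogs were absent or nearly so. Rpl3l, which replaces Rpl3 in heart and skeletal muscle, had 0 counts in all 9 libraries, where 3 counts correspond to 0.0540 to 0.189 CPM. Rpl10l, the testis copy of Rpl10, had 0 to 3 counts. Rpl39l, the germ-cell copy of the exit-tunnel protein Rpl39, had 36, 72 and 34 counts in WT, 10, 8 and 45 in APP/PS1 and 0, 48 and 11 in the compound genotype, and its log2 fold changes carried standard errors of 1.47 to 1.49. The general forms stood at 390 ± 44.2 CPM in WT for Rpl3, 350 ± 18.1 for Rpl10 and 42.7 ± 6.72 for Rpl39. Per kb over all libraries, the broadly expressed paralog Rps27l, a target of p53, stood at 140 CPM per kb (122 to 171) beside the 740 of Rps27. Rps4x, the small-subunit protein encoded on the X chromosome, stood at 285 ± 36.0 CPM, and the row Rps4y2, which RefSeq now names Rps4l and which the rule does not take, at 78.4 ± 7.38.

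Replicates agreed closely for most of these genes. The median coefficient of variation over the WT libraries was 7.31% for the 77 genes of at least 5 CPM, against 16.1% for the 9726 such genes of the matrix; the median level of the tested genes was 159 CPM against 18.7 for all tested genes, so depth differs between the sets. Rpl19 (0.929%), Rpl28 (1.47%) and Rpl11 (1.49%), a large-subunit protein that also binds the p53 regulator Mdm2, varied least. Rpl26 (28%), Rpl30 (24.7%) and Rps29 (16.9%) varied most, and Rpl26 is the gene that shares most of its counts with Gm15772.

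Set against the WT mean, the libraries differed as a block. Each WT library was part of that mean, so WT deviations centre on 0 by construction, while those of the other genotypes need not. The median log2 deviation over the 78 genes was 0.08, -0.05 and -0.02 in the WT libraries, -0.23, -0.21 and 0.01 in APP/PS1 and -0.25, -0.16 and -0.20 in the compound genotype. APP/PS1 replicate 3 stood with WT and apart from the other APP/PS1 libraries, while the 3 libraries of the compound genotype stood together below WT. The number of genes below the WT mean was 7, 58 and 52 in WT, 70, 69 and 33 in APP/PS1 and 76, 70 and 71 in the compound genotype. WT replicate 1 was the highest of the 9 libraries for 48 of the 78 genes. APP/PS1 replicate 1, the shallowest library, was the lowest for 25, and replicate 1 of the compound genotype for 22. The pooled SD of the library medians within genotypes was 0.09.

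**Figure D2:**
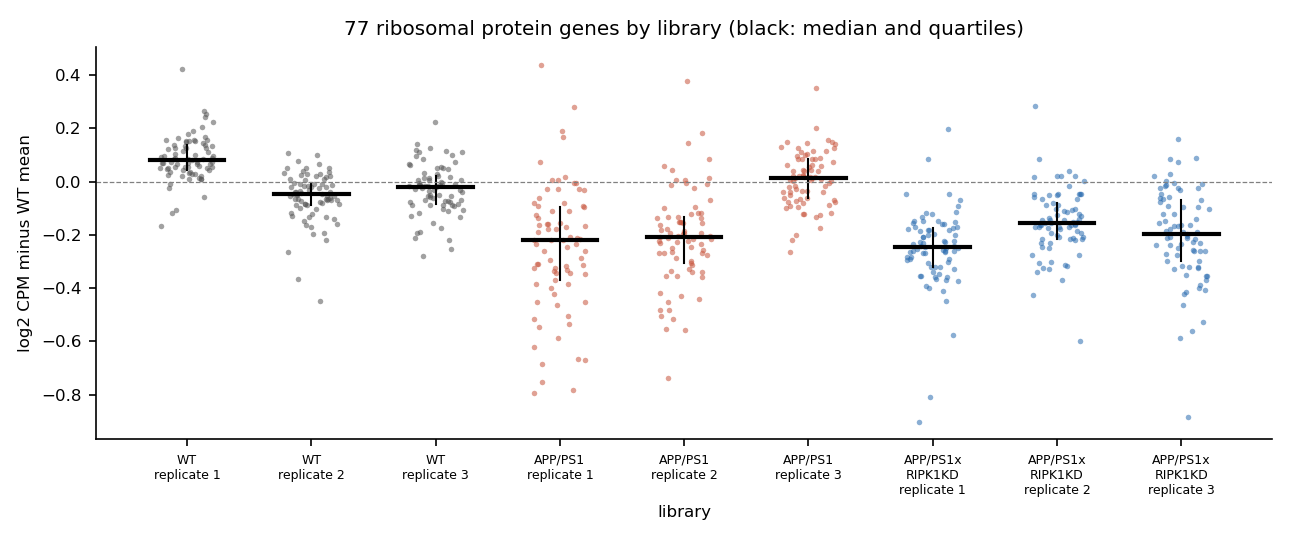
Each point is 1 of 77 ribosomal protein genes (Rpl39l left out) in 1 of the 9 libraries, as log2 CPM minus the WT mean of that gene; black bars give the median and lines the quartiles. Replicates 1 and 2 of APP/PS1 and the 3 libraries of the compound genotype sit below 0, and APP/PS1 replicate 3 sits at the level of WT.

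Comparing APP/PS1 with WT asks how amyloid-bearing mice differ in endothelial transcripts. Of the 78 ribosomal protein genes, 70 had a log2 fold change below 0, against 49.8% of all tested genes, though with library totals in place of TMM 34 did. No single gene passed the test. The median log2 fold change was -0.15 against 0.00 over all tested genes, and with library totals it was 0.02 against 0.17, a distance of -0.16 from the typical gene. Above 0 were Rpl10, Rpl14, Rpl30, Rpl35, Rpl5, Rps27l, Rps4x and Rps6. The large subunit outside the stalk had a median of -0.15 with 39 of 44 genes below 0, the small subunit -0.14 with 28 of 31, and the 3 stalk genes -0.28 with 3 of 3. At an FDR of 0.05 edgeR called 0 of the 78 (0.0225% of all tested genes were called), and at an unadjusted p under 0.05 it counted 1 lower, Rpl27 (2.65% of all tested genes were lower), and 0 higher (3.49% of all); DESeq2 and limma-voom called 0. In 8 genes every APP/PS1 library lay below every WT library, against 5.44% of all tested genes, and in 0 did every library lie above (5.43% of all).

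Rpl27, a large-subunit protein altered in Diamond-Blackfan anaemia, stood at 139, 135 and 124 CPM in WT and at 101, 107 and 115 CPM in APP/PS1. The groups did not overlap, the log2 fold change was -0.30 ± 0.12 SE and the difference did not pass the threshold (edgeR FDR 0.795). Rpl36, another large-subunit protein, stood at 116, 107 and 102 CPM in WT and at 72.0, 89.8 and 101 CPM in APP/PS1, where replicate 3 all but reached the lowest WT library (edgeR FDR 0.816). Rpl27a stood at 244, 222 and 224 CPM against 185, 197 and 204, and Rps15a, a small-subunit protein, at 75, 73.2 and 78.3 CPM against 67.0, 59.7 and 64.8. Rps24, which is needed to mature the small-subunit RNA, stood at 193, 180 and 186 CPM in WT and at 158, 152 and 171 CPM in APP/PS1. Rps25 and Rpl35a did not overlap either (183, 168 and 162 against 152, 148 and 157 CPM for Rps25, and 96.9, 101 and 97.6 against 78.6, 90.7 and 96.0 CPM for Rpl35a). In each of the genes just named except Rps15a, APP/PS1 replicate 3 was the highest of its group.

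The difference between APP/PS1 and WT was not shared by replicate 3. Within replicates 1 and 2 the median log2 difference was -0.25 with 73 of 78 genes below 0, and within replicate 3, with 1 library of each genotype, it was 0.04 with 26 of 78 below 0. Leaving out APP/PS1 replicate 3 gave a median of -0.24, and 21 genes then had an unadjusted p under 0.05 and lay lower (4.62% of all tested genes), still with 0 past the FDR threshold. Leaving out another library gave 0 such genes without WT replicate 1 (2.18% of all tested genes) or APP/PS1 replicate 1 (2.40%). It gave 1 without WT replicate 2 (2.14%) or APP/PS1 replicate 2 (2.03%), and 4 without WT replicate 3 (3.48%). Rps6, the substrate of the S6 kinases, stood at 423, 374 and 434 CPM in WT and at 367, 411 and 454 CPM in APP/PS1, with full overlap. The authors' deposited table for this comparison held 78 of the genes, 72 of them below 0 (50.5% of its 12460 genes). Their log2 fold changes there had a median of -0.15, with 0 of these genes past an FDR of 0.05. The smallest FDR among them in the authors' deposited table was 0.790, for Rps21.

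Comparing the compound genotype with APP/PS1 asks how the altered Ripk1 changes endothelial transcripts of amyloid-bearing mice. The median log2 fold change of the 78 genes was -0.07, against 0.00 over all tested genes, and 59 lay below 0 (50.6% of all tested genes); with library totals in place of TMM 42 did, with a median of -0.01. The value depends on APP/PS1 replicate 3: without that library the median was 0.02 and 32 of 78 lay below 0. Within replicate 3, with 1 library of each genotype, the median log2 difference was -0.20 with 74 of 78 below 0. Within replicates 1 and 2 it was 0.02 with 34 below 0. The subunits gave medians of -0.06 (large, 32 of 44 below 0), -0.09 (small, 26 of 31) and 0.01 (stalk, 1 of 3). At an FDR of 0.05 edgeR called 0 (0.00751% of all tested genes were called), and DESeq2 and limma-voom called 0; at an unadjusted p under 0.05 edgeR counted 1 lower (2.34% of all) and 0 higher (2.44% of all). The libraries did not overlap and lay lower in 5 genes (4.66% of all), namely Rplp1, Rps4x, Rpl22, Rps24 and Rps25, and lay higher in 0 (5.32% of all).

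Rplp1, an acidic stalk protein that helps recruit elongation factors, was the gene with the unadjusted p under 0.05, at 193, 162 and 231 CPM in APP/PS1 and 128, 158 and 129 CPM in the compound genotype. Its log2 fold change was -0.50 ± 0.17 SE and did not pass the threshold (edgeR FDR 0.980). Rps4x stood at 318, 265 and 306 CPM in APP/PS1 and at 242, 256 and 253 CPM in the compound genotype (edgeR FDR 1.00). Rpl22, an RNA-binding protein of the large subunit, stood at 67.0, 63.7 and 65.0 CPM against 59.5, 55.2 and 57.1 CPM. Its groups did not overlap, and its log2 fold change was -0.19 ± 0.13 SE (edgeR FDR 1.00). The stalk partners of Rplp1 did not share its value here, with log2 fold changes of 0.02 ± 0.13 SE for Rplp0 and 0.01 ± 0.16 SE for Rplp2; the difference between the stalk genes was not tested.

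Comparing the compound genotype with WT gave the widest difference of the 3 comparisons in number of genes, on the same WT libraries as the comparison of APP/PS1 with WT. Of the 78 genes, 76 had a log2 fold change below 0 (49.4% of all tested genes), though with library totals in place of TMM 33 did. The exceptions under TMM were Rpl30 and Rps27l. The median was -0.20 against 0.00 under TMM and 0.02 against 0.23 with library totals, a distance of -0.21 from the typical gene on both scales. The large subunit gave a median of -0.19 with 43 of 44 below 0, the small subunit -0.23 with 30 of 31 and the stalk -0.27 with 3 of 3. In 34 genes every library of the compound genotype lay below every WT library, against 5.99% of all tested genes, and in 0 did every library lie above (6.05% of all). At an unadjusted p under 0.05 edgeR counted 11 lower (3.21% of all) and 0 higher (2.97% of all), and at an FDR of 0.05 it called 0 (0.0375% of all tested genes were called). Limma-voom called 0 and DESeq2 called 1, Rplp1. The 11 genes became 1 with library totals in place of TMM (1.11% of all) and 4 with library totals without Rn45s (2.62% of all). They became 5 with the replicate block (2.88% of all) or without the filter on low counts (2.71% of all).

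The median lay below 0 in both sets of libraries. Within replicates 1 and 2 the median log2 difference was -0.23 with 76 of 78 genes below 0. Within replicate 3, with 1 library of each genotype, it was -0.14 with 69 of 78 below 0. That single pair gives no spread between libraries, and genes of the same library are not independent replicates. Leaving out 1 library at a time gave medians from -0.23 to -0.16. The 11 genes with an unadjusted p under 0.05 became 2 (2.73% of all tested genes) without WT replicate 1, the library highest for most of the 78 genes. They became 3 (2.56% of all) without replicate 1 of the compound genotype, so both counts were near the share over all tested genes.

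Rplp1 had the lowest fold change of the well-expressed genes. It stood at 284, 232 and 206 CPM in WT, at 193, 162 and 231 CPM in APP/PS1 and at 128, 158 and 129 CPM in the compound genotype. All 3 libraries of the compound genotype lay below the other 6, and APP/PS1 lay between with overlap to WT. The mean was 138 ± 16.9 CPM against 241 ± 40 in WT, a fitted difference of -42.6% (log2 fold change -0.80 ± 0.17 SE, edgeR FDR 0.269), and its p ranked 19 among all tested genes. DESeq2 gave an adjusted p of 0.00361, and over the other settings run the adjusted p ranged from 0.0546 without the filter on low counts to 0.847 without replicate 1 of the compound genotype. The gene Rplp1 occupies bases 61913284 to 61914542 of chromosome 9 (GRCm38, minus strand), and the transcript used has 3 exons and 499 bases.

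The other stalk genes differed less. Rplp0, the stalk protein that anchors the acidic pair, stood at 441, 373 and 393 CPM in WT, 310, 332 and 406 in APP/PS1 and 342, 361 and 362 in the compound genotype, without overlap between the first and the last and with a fitted difference of -11.7% (edgeR FDR 0.929). Rplp2, the partner of Rplp1, stood at 99.5, 88.6 and 77.1 CPM in WT, 70.7, 61.5 and 86.2 in APP/PS1 and 68.1, 79.5 and 71.5 in the compound genotype, with overlap (edgeR FDR 0.889). WT replicate 1 was the highest of all 9 libraries for each of the 3 stalk genes.

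**Figure D3:**
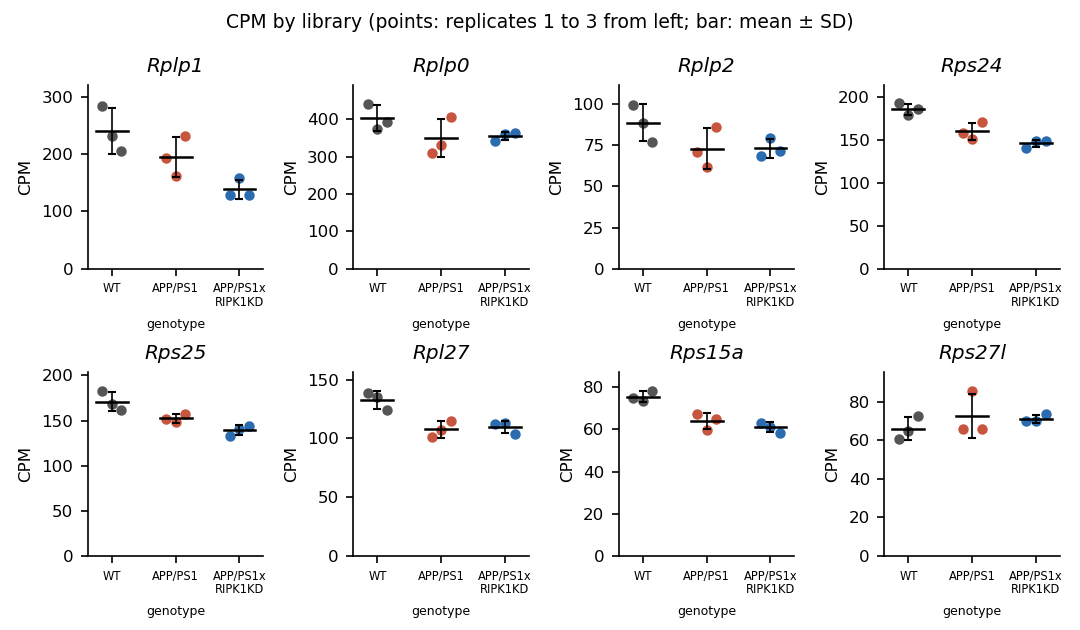
CPM of 8 ribosomal protein genes in every library, with replicates 1 to 3 from left to right in each genotype and bars for the mean ± SD; axes start at 0. Rplp1 has a mean of 241 in WT and 138 in the compound genotype, the genotypes of Rps24 and Rps25 do not overlap, and Rps27l overlaps throughout.

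Rps24 and Rps25, both of the small subunit, were the only ones of the 78 whose libraries did not overlap in any of the 3 comparisons. The share of all tested genes with that pattern was not counted, so it cannot be said to mark these genes. Neither gene passed the threshold in any comparison. Rps24 stood at 193, 180 and 186 CPM in WT, 158, 152 and 171 in APP/PS1 and 141, 149 and 149 in the compound genotype. Each genotype lay below the one before it, and against WT the fitted difference of the compound genotype was -21.5% (log2 fold change -0.35 ± 0.11 SE, edgeR FDR 0.640). Rps25, which some viral and cellular mRNAs need for internal initiation, stood at 183, 168 and 162 CPM in WT, 152, 148 and 157 in APP/PS1 and 133, 141 and 144 in the compound genotype. The fitted difference of the compound genotype from WT was -18.6% (log2 fold change -0.30 ± 0.11 SE, edgeR FDR 0.714). On the plus strand, Rps24 spans bases 24487125 to 24496959 of chromosome 14 and Rps25 bases 44407139 to 44410427 of chromosome 9 (GRCm38).

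Rps15a stood at 63.1, 61.2 and 58.4 CPM in the compound genotype, below all WT libraries (edgeR FDR 0.756), and its sum with Rps15a-ps6, 76.7, 78.4 and 74.8 CPM against 95.8, 94.7 and 95.0 in WT, did not overlap either. Rps27a, which is made as a fusion with ubiquitin, stood at 239, 224 and 228 CPM in WT, 231, 189 and 216 in APP/PS1 and 182, 208 and 174 in the compound genotype, without overlap between the first and the last (edgeR FDR 0.776). Rpsa, also known as the laminin receptor, stood at 221, 202 and 211 CPM in WT and at 186, 163 and 143 CPM in the compound genotype, with APP/PS1 at 212, 127 and 214 (edgeR FDR 0.868 for the compound genotype against WT). In Rpsa the APP/PS1 libraries spread more than the distance between the genotypes.

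In the large subunit, Rpl27 stood at 112, 113 and 104 CPM in the compound genotype, close to APP/PS1 and below all WT libraries (edgeR FDR 0.776). Rpl3, near the peptidyl transferase centre, stood at 423, 340 and 407 CPM in WT and 303, 289 and 348 in the compound genotype, overlapping through WT replicate 2. Rpl10, one of the last proteins to join the large subunit, stood at 371, 337 and 344 CPM in WT, 399, 293 and 387 in APP/PS1 and 296, 301 and 297 in the compound genotype. The 3 values of the compound genotype were tight, and APP/PS1 spanned both other groups. Rpl41 stood at 264, 254 and 236 CPM in WT, 158, 221 and 269 in APP/PS1 and 243, 240 and 236 in the compound genotype, and Rpl36a at 68.7, 64.3 and 65.3, 54.1, 60.1 and 67.9, and 55.4, 59.0 and 65.0 CPM, both with overlap.

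Rps27l went the other way, though within its error. It stood at 60.7, 64.8 and 72.5 CPM in WT, 65.6, 85.5 and 65.9 in APP/PS1 and 69.7, 69.8 and 73.5 in the compound genotype. The log2 fold change against WT was 0.11 ± 0.14 SE in the compound genotype (edgeR FDR 0.995), beside -0.26 ± 0.16 SE for Rps27. Rpl30, the other gene above 0, stood at 15.1, 9.43 and 15.1 CPM in WT and 14.8, 15.7 and 10.3 in the compound genotype, and its sign turned without WT replicate 2 and without replicate 1 or 2 of the compound genotype.

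**Figure D4:**
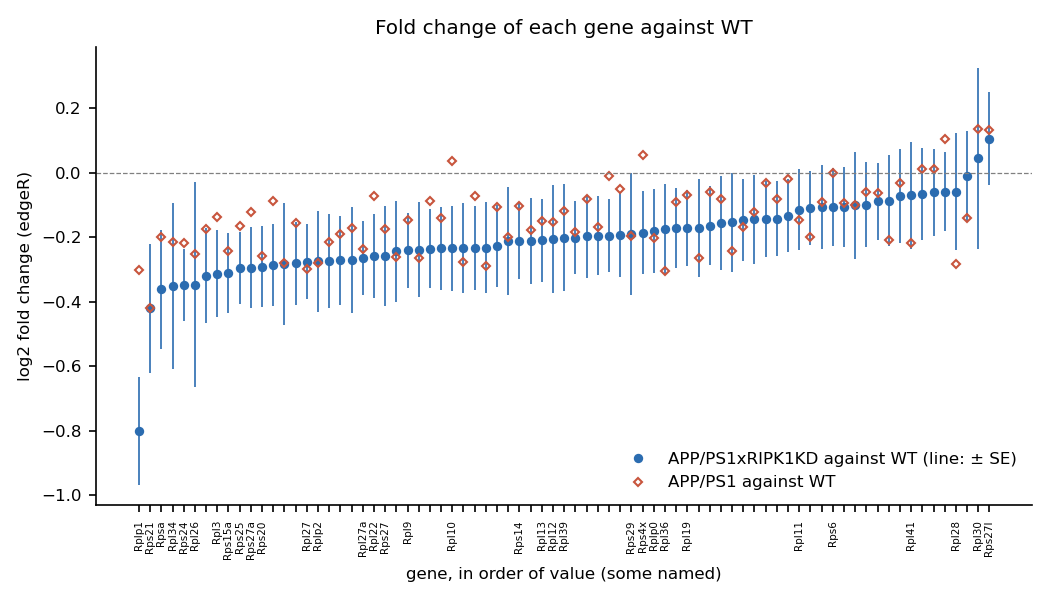
Log2 fold change against WT of 77 ribosomal protein genes (Rpl39l left out), ordered by the value of the compound genotype (filled points, lines ± SE), with APP/PS1 against WT as open diamonds. Rplp1 stands apart at -0.80, most genes lie between -0.40 and 0, and Rps27l and Rpl30 lie above 0; both comparisons use the same WT libraries.

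The choice of scaling sets the zero of these comparisons. TMM, RLE, upper-quartile scaling and TMM without Rn45s gave medians from -0.16 to -0.14 for APP/PS1 against WT, from -0.07 to -0.06 for the compound genotype against APP/PS1, and -0.20 for the compound genotype against WT. Under library totals alone the median of all tested genes was 0.17, 0.05 and 0.23, and the distance of the ribosomal protein genes from it was -0.16, -0.05 and -0.21. Rn45s took a mean of 32.3% of the counts in WT, 24.2% in APP/PS1 and 23.0% in the compound genotype. With library totals and Rn45s left out, an alternative chosen after seeing the data, the medians of the ribosomal protein genes were -0.14, -0.04 and -0.17. Rn45s itself had a log2 fold change of -0.71 ± 0.25 SE in the compound genotype against WT (edgeR FDR 0.662).

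**Figure D5:**
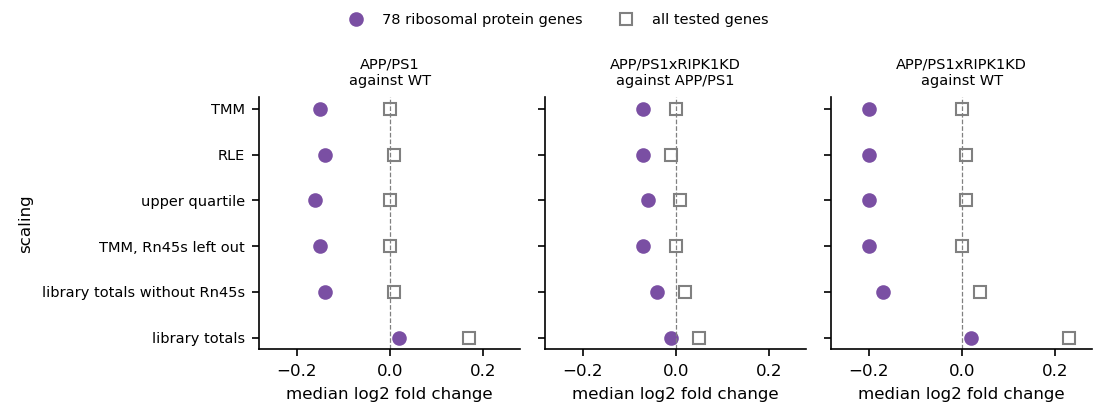
Median log2 fold change of the 78 ribosomal protein genes (filled) and of all tested genes (open squares) under 6 ways of scaling the libraries, 1 panel per comparison. With library totals both medians move to the right, and their distance, -0.21 for the compound genotype against WT, is kept.

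Other genes of the translation machinery were read from lists that were chosen with earlier results of these data known. In each list, 0 genes passed an FDR of 0.05 in edgeR in any of the 3 comparisons. Ribosomal proteins that the symbol rule does not take were on the same side against WT, with 5 of 6 tested below 0 in each comparison. Their medians against WT were -0.11 in APP/PS1 and -0.15 in the compound genotype. In the compound genotype against APP/PS1, 2 of the 6 lay below 0, with a median of 0.05 beside -0.07 for the 78 genes. Fau, a fusion of a ubiquitin-like protein with a small-subunit protein, stood at 284, 248 and 265 CPM, 182, 220 and 281, and 232, 226 and 253, with overlap. Rps3a1, which also falls outside the rule by its final digit, stood at 336 ± 23.4 CPM in WT, 309 ± 19.8 in APP/PS1 and 294 ± 4.73 in the compound genotype.

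Of 23 tested genes of translation factors and other products of TOP mRNAs, 13 lay below 0 in APP/PS1 against WT (median -0.01), 18 in the compound genotype against APP/PS1 (median -0.07) and 16 in the compound genotype against WT (median -0.09). Eif3f, a subunit of an initiation factor, stood at 154, 153 and 161 CPM in WT, 150, 145 and 152 in APP/PS1 and 122, 125 and 134 in the compound genotype (edgeR FDR 0.706 against WT). Eef1b2, an exchange factor of elongation, stood at 90, 95.0 and 96.3 CPM in WT and 78.6, 71.7 and 77.1 in the compound genotype (edgeR FDR 0.723). In both genes the compound genotype lay below the other 6 libraries. Eef1a1, which delivers aminoacyl-tRNA to the ribosome, stood at 1934 ± 226 CPM in WT, 1859 ± 153 in APP/PS1 and 1730 ± 87.6 in the compound genotype.

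Of 48 tested ribosome biogenesis genes, 21 lay below 0 in APP/PS1 against WT (median 0.06), 28 in the compound genotype against APP/PS1 (median -0.06) and 22 in the compound genotype against WT (median 0.02). Rrp12, which exports ribosome precursors, stood at 1.21, 0.712 and 2.67 CPM in WT and 4.15, 7.15 and 4.97 in APP/PS1, and Nol6, a processing factor of the small-subunit RNA, at 18.4, 20.6 and 21.9 against 8.56, 7.51 and 17.3. These were the genes of the list with the smallest p in that comparison, and neither passed the threshold (edgeR FDR 0.787 for both). Of 22 genes that control ribosomal protein mRNA, 7 lay below 0 in APP/PS1 against WT (median 0.12), 12 in the compound genotype against APP/PS1 (median -0.08) and 8 in the compound genotype against WT (median 0.08). Gabpa, the DNA-binding subunit of GABP, stood at 43.4, 31.4 and 37.9 CPM in WT and 53.7, 52.8 and 46.6 in APP/PS1 (edgeR FDR 0.795), Mtor at 47.6 ± 3.53 CPM in WT and 54.2 ± 3.78 in the compound genotype, and Larp1 at 15.9 ± 2.97 and 17.0 ± 1.09. Of 76 mitochondrial ribosomal protein genes, which serve a separate ribosome, 47 lay below 0 in APP/PS1 against WT (median -0.06), 31 in the compound genotype against APP/PS1 (median 0.03) and 41 in the compound genotype against WT (median -0.01).

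Markers of other cells moved with genotype beside these genes, and their part in the ribosomal protein values was not tested. The summed level of 16 mural cell markers was 17.2 to 73.3 CPM in WT, 217 to 286 in APP/PS1 and 77.7 to 333 in the compound genotype, with 15 and 14 of 16 above 0 against WT and none at 0 in all libraries. Fibroblast markers summed to 0.132 to 1.24, 6.82 to 13.4 and 2.06 to 7.26 CPM, with Lum at 0 in all 9 libraries. Oligodendrocyte markers summed to 590 to 751, 589 to 712 and 426 to 533 CPM and choroid plexus markers to 55.9 to 90.2, 70.0 to 155 and 183 to 319 CPM, and for both the compound genotype did not overlap with the other groups. Genes of the dissociation response summed to 1529 to 2479, 2159 to 3558 and 1536 to 2305 CPM. The 10 endothelial markers summed to 22315 to 24349, 20903 to 24155 and 20708 to 23356 CPM, with overlap. Of them, 2 lay above 0 in APP/PS1 against WT, 7 in the compound genotype against APP/PS1 and 6 in it against WT. The lists of astrocytes (39.4 to 111 CPM over all libraries), microglia (54.3 to 110), leukocytes (0.847 to 3.13), neurons (1.39 to 11.9) and erythroid cells (1120 to 5495) overlapped between the genotypes.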

How the data were processed

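Poly(A)-primed RNA was measured in 9 Smart-seq2 libraries, read with 50 and 25 bases; the protocol marks neither strand nor molecules. The authors deposited RSEM expected counts per gene symbol, and per the submitters' processing notes Bowtie 0.12.2, RSEM, edgeR 3.10.2 and build mm10 (GRCm38) were used; which annotation RSEM read is not stated there. The authors' deposited edgeR table of APP/PS1 against WT holds log2 fold changes and log2 abundances, a likelihood ratio score (not used here) and a p-value with its FDR; only its fold changes, p-values and FDR were set beside the values computed here.

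Expected counts were rounded and filtered with filterByExpr (minimum count 10, minimum total 15), which kept 13317 of 23420 rows. One edgeR 4.0.16 quasi-likelihood model (robust, TMM, a term for each genotype) was fitted in R 4.3.3 over the 9 libraries and tested 2-sided, with Benjamini-Hochberg adjustment over all tested genes and a threshold of 0.05. CPM uses TMM-adjusted totals; log2 CPM has a prior count of 2. Means are ± SD over 3 libraries. Lists are described by counts and medians without a test. Alternatives were DESeq2 1.42.0, limma-voom 3.58.1, other scalings and filters, libraries left out and a replicate block. Positions and lengths are from GENCODE M21 (GRCm38), the shortest complete transcript of the best principal class, and start regions from RefSeq (GRCm38.p6). Depth was 16263792 to 52413200 counts per library; the floor of 3 counts covers counting error only, since PCR copies are not independent molecules.

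The members and lists were chosen with earlier results of these data known. Named genes are those past the threshold, up to 6 per comparison and direction with the smallest p among genes whose libraries did not overlap, the 5 highest and 5 lowest per kb, the 3 most and least variable in WT, and a fixed set (stalk genes, Rpsa, Rps6, Rpl41, Rps29 and paralog pairs). From each further list the 2 genes with the smallest p per comparison were eligible. Rpl35a, Rpl14, Rpl35, Rpl5, Rps21, Rps3a1, Rps4y2, Eef1a1, Mtor and Larp1 fall outside that rule and were named after their values were seen. Some genes that the rule names are not reported here.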

Additional observations from a re-analysis of the deposited data

How the results depend on the processing

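In all alternatives run, 0 of the 78 genes passed the threshold, except that DESeq2 called 1, Rplp1 in the compound genotype against WT (log2 fold change -0.80, adjusted p 0.00361). Genes called among all tested numbered 3, 1 and 5 in the 3 comparisons (APP/PS1 against WT, the compound genotype against APP/PS1, the compound genotype against WT). They numbered 45, 20 and 63 with DESeq2, 0 and 2 in the last 2 comparisons with limma-voom, 7 and 14 in the comparisons of APP/PS1 and of the compound genotype with WT without a filter, and 5 and 8 there with a minimum count of 50. Upper-quartile scaling, library totals without Rn45s and near copies added to their parents each gave 8 for the compound genotype against WT (the latter 2 settings were chosen after seeing the data), and library totals alone gave 5 for APP/PS1 against WT. With library totals alone the median of the ribosomal protein genes was 0.02 with 34 below 0 for APP/PS1 against WT and 0.02 with 33 below 0 for the compound genotype against WT, where the median of all genes was 0.17 and 0.23. With replicates 1 and 2 only, the median was -0.25 for APP/PS1 against WT and 0.02, with 34 below 0 and 0 genes called, for the compound genotype against APP/PS1, and 8 genes were called for the compound genotype against WT; fewer libraries were fitted. The cause of the other changes was not tested.

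Leaving out 1 library at a time gave 1 to 5, 0 to 4 and 2 to 9 genes called, medians from -0.24 to -0.09, -0.10 to 0.02 and -0.23 to -0.16, and 66 to 75, 32 to 72 and 73 to 77 genes below 0. The mean share of counts was 2.07%, 1.91% and 1.85% in WT, APP/PS1 and the compound genotype without Rn45s in the denominator. With Rn45s kept in the denominator and 1 library left out, the mean share was 1.38% to 1.44%, 1.40% to 1.52% and 1.40% to 1.49%. The share without Rn45s is not given here with a library left out. Same-numbered libraries of different genotypes had deviations with correlations from -0.019 to 0.098, none over 0.1. By that cutoff the numbers are not taken to pair the samples. Replicate 3 of every genotype nevertheless differed from replicates 1 and 2 in Xist and Y-linked transcripts. The main model holds no term for that difference. With a replicate block 2, 0 and 0 genes were called, and the medians were -0.16, -0.06 and -0.20. Of the 35 named genes tested, 12, 7 and 15 changed sign with library totals alone, and 11 did for the compound genotype against APP/PS1 without APP/PS1 replicate 3. With 3 libraries a genotype, standard errors had a median of 0.13 on the log2 scale.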

Other observations

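Across the 78 tested ribosomal protein genes, transcript length and CPM had a Spearman correlation of 0.56, and length and CPM per kb one of -0.03. Mean level and log2 fold change had correlations of 0.39 for APP/PS1 against WT and 0.21 for the compound genotype against WT, and length and log2 fold change 0.29 and 0.21. These are descriptions over genes that share the same libraries and depth, and genes are not independent replicates.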
